A study of Rattus norvegicus with 8 samples.

Results

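Irs2 and Igf1r are a pair of genes of the insulin and IGF signalling pathway. Their rows were taken by gene symbol from 2 deposited expression tables of INS-1 cells, a rat insulinoma line that secretes insulin and stands in for beta cells of the pancreas. Both genes were among the 1344 genes of a glucose table, and 1 of them, Irs2, was among the 566 genes of an A-CREB table. The response of Igf1r to A-CREB was not analysed here. The glucose table held 4 groups, a 2.8 mM and a 20 mM glucose culture of 3 days, each finished with 2 h of 10 uM forskolin or of DMSO, its vehicle. The 4 groups of the A-CREB table were all at 11 mM glucose, uninfected or with 2 days of an adenovirus carrying A-CREB, and had the same 2 h of DMSO or 10 uM forskolin. Through adenylyl cyclase, forskolin raises cAMP, and A-CREB acts as a dominant negative on CREB, the cAMP-responsive transcription factor. The study asked how glucose exposure and CREB activity shape gene regulation by cAMP in beta cells.

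Igf1r encodes the type 1 receptor for insulin-like growth factors, a receptor tyrosine kinase closely related to the insulin receptor. Irs2 encodes an adaptor that is phosphorylated by both receptors and passes the signal to PI 3-kinase and AKT. In mice, loss of Irs2 leads to failing beta cells and diabetes, and Irs2 is a known target of CREB in mouse islets.

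With a single library in each of the groups, differences between conditions have no replicate check and were not tested, and all values describe these libraries. Expression is in FPKM, fragments per transcript length and library size. A fold is the forskolin level over the DMSO level after adding 0.1 FPKM to both, and the change of a fold is the difference of its log2 values between 2 conditions. Both tables list only genes whose forskolin level was over 2 times the DMSO level in a reference condition, 2.8 mM glucose or no virus, with lowest listed ratios of 2.00 in both. The reference folds of Irs2 and Igf1r are therefore how these genes came to be listed, and genes listed by a high fold in one library pair tend by chance to have lower folds elsewhere. Sequencing depth is known only from the spacing of low values: 1 FPKM stood for about 13.4 to 22.1 reads in the libraries of the glucose table and for 6.25 to 9.33 reads in those of the A-CREB table, at the transcript length of the median low gene. At that length the values of Irs2 and Igf1r would rest on about 123 to 7346 reads. Intervals below are approximate 95% intervals from these read numbers and cover counting error only. Of 12 beta cell markers, 3 were listed, Mafa and Nkx2-2 in both tables and Pdx1 in the A-CREB table, and none of 16 markers of other cell types was listed in either. Listing required a response to forskolin, so neither count shows which cell types were present.

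Irs2 was among the more abundant forskolin-responsive genes at both glucose levels, and its fold was over 5 at both. In the 2.8 mM libraries Irs2 measured 66.5 FPKM with DMSO and 546 FPKM with forskolin. In the 20 mM libraries it measured 55.4 FPKM with DMSO and 313 FPKM with forskolin. Both forskolin levels lay above both DMSO levels, and within each treatment the 20 mM library was the lower. The DMSO level was 1.20 times lower at 20 mM and the forskolin level 1.74 times lower. Its rank from the highest level was 54 of 1344 genes in 2.8 mM forskolin and 60 in 20 mM forskolin. In bulk RNA, a smaller number of responding cells and less RNA per cell cannot be told apart.

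**Figure D1:**
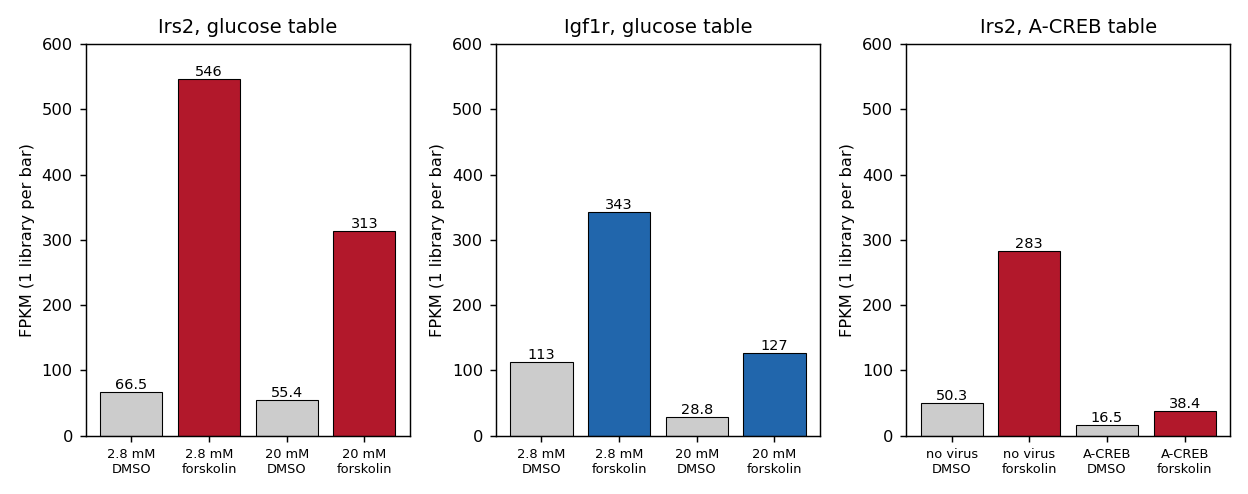
FPKM of Irs2 and Igf1r in each library in which they were listed, 1 bar per library with no error since each group has 1 library; grey bars are DMSO and coloured bars are forskolin. Irs2 is highest in 2.8 mM forskolin at 546 FPKM, Igf1r has its lowest bar in 20 mM DMSO at 28.8 FPKM, and Irs2 with A-CREB and forskolin, at 38.4 FPKM, stays under its no-virus DMSO level of 50.3 FPKM. The A-CREB panel comes from a separate table, so its heights are not to be compared with the other panels.

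The forskolin fold of Irs2 was 8.20 at 2.8 mM and 5.65 at 20 mM. At 20 mM it was one of 500 genes that reached 2-fold (37.2% of the table), and 93 genes had a larger fold there, against 158 at 2.8 mM. Its change of fold was -0.54 on the log2 scale (counting interval -0.66 to -0.41), where the median gene of the table had -0.81. A lower fold at 20 mM was seen in 91.2% of all listed genes, so the direction of Irs2 was that of nearly the whole table, and 917 of 1344 genes had a more negative change. The FPKM gained with forskolin was 479.8 at 2.8 mM and 258 at 20 mM, so that the gain at 20 mM was 53.7% of that at 2.8 mM. The median gene had 35.2%.

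Igf1r had a lower level at 20 mM glucose in both treatments, and more so in DMSO, which left it with a larger fold. At 2.8 mM it measured 113 FPKM with DMSO and 343 FPKM with forskolin. At 20 mM it measured 28.8 FPKM with DMSO and 127 FPKM with forskolin. The 20 mM forskolin level was thus close to the 2.8 mM DMSO level, and the order of the libraries was 2.8 mM forskolin, 20 mM forskolin, 2.8 mM DMSO and 20 mM DMSO. With 1 library per group, it cannot be said whether the middle pair differed beyond the spread between cultures.

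The DMSO level of Igf1r was 3.93 times lower at 20 mM than at 2.8 mM, a log2 ratio of -1.97 (counting interval -2.10 to -1.85). A DMSO level over 2 times lower was found in 7.59% of the listed genes, and 16 of 1344 genes had a lower ratio than Igf1r. The median log2 DMSO ratio of the table was 0.14. In forskolin, Igf1r was 2.70 times lower at 20 mM, where 34.1% of listed genes were over 2 times lower and 259 genes had a lower ratio. The forskolin fold of Igf1r was 3.03 at 2.8 mM and 4.40 at 20 mM. Its change of fold was 0.54 on the log2 scale (counting interval 0.39 to 0.69). A higher fold at 20 mM was found in 118 genes, 8.78% of the table, and 32 genes had a larger change than Igf1r. The change was under 1.5 times, a size that 28 genes (2.08%) exceeded.

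Measured as FPKM gained, the order for Igf1r was the other way. Forskolin added 229.9 FPKM at 2.8 mM and 98.2 FPKM at 20 mM, 42.7% of the 2.8 mM gain. Of the 118 genes with a higher fold at 20 mM, 37 gained fewer FPKM there than at 2.8 mM, and Igf1r was one of them. Levels over 2 times lower at 20 mM in both treatments were found in 93 genes (6.92%), of which 14, Igf1r included, had a higher fold.

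**Figure D2:**
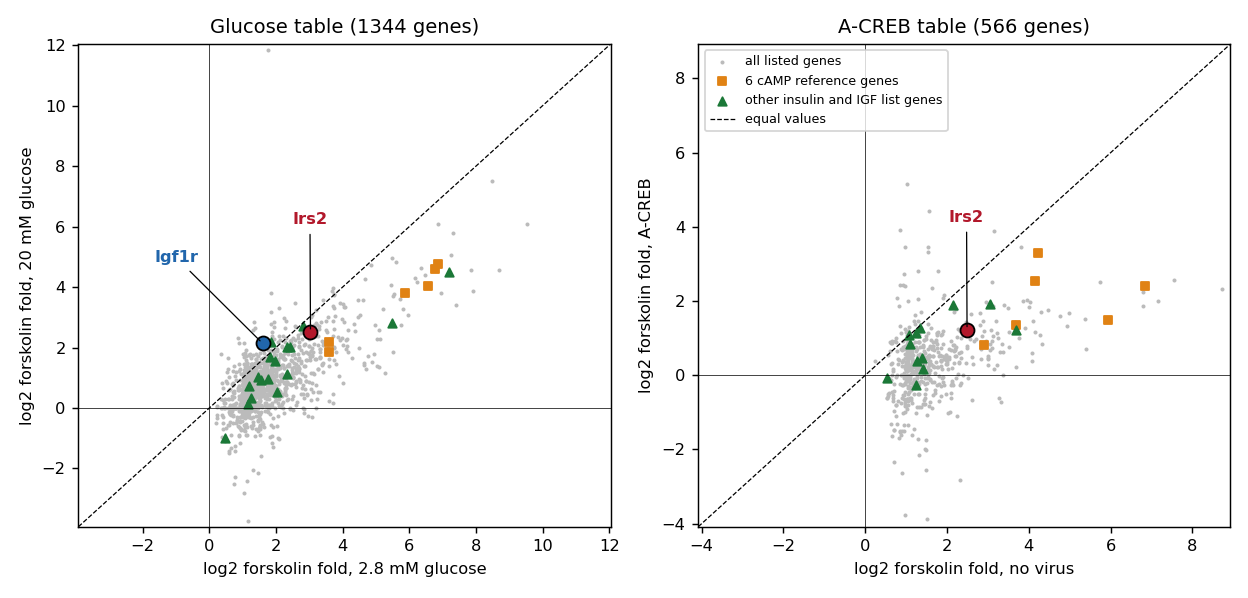
Log2 forskolin fold of each listed gene in the reference condition (horizontal axis) and the second condition (vertical axis), left for 2.8 and 20 mM glucose and right for no virus and A-CREB; each point is a gene from 1 library per group, and genes at 0 in a library are placed by the added 0.1 FPKM. Igf1r lies above the dashed line of equal folds at 1.60 and 2.14, while Irs2 lies below it at 3.04 and 2.50 in the glucose table and at 2.49 and 1.21 in the A-CREB table.

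Igf1r and Irs2 thus had changes of 0.54 and -0.54 on the log2 scale. Relative to the median change of all listed genes, which the listing rule tends to lower, both were above 0, at 1.35 for Igf1r and 0.27 for Irs2. For Irs2 the DMSO level was nearly the same at both glucose levels, with a log2 ratio of -0.26 (counting interval -0.38 to -0.15), and the forskolin level carried most of the difference, at -0.80. Relative to the median ratios of all listed genes, that order was reversed for Irs2, at -0.41 in DMSO and -0.13 in forskolin. For Igf1r the DMSO ratio of -1.97 exceeded in size the forskolin ratio of -1.43. Relative to the medians Igf1r kept this order, at -2.12 and -0.76. The listing rule shifts the DMSO and forskolin medians in opposite directions, so the reversal for Irs2 is not read as a result. Whether the genes differ in their response to glucose beyond the spread between cultures was not tested.

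With A-CREB, Irs2 was lower in both treatments. Without virus it measured 50.3 FPKM with DMSO and 283 FPKM with forskolin. With A-CREB it measured 16.5 FPKM with DMSO and 38.4 FPKM with forskolin. The forskolin level with A-CREB did not reach the DMSO level without virus. The control was uninfected, so effects of the virus and of A-CREB cannot be told apart here.

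The DMSO level of Irs2 was 3.04 times lower with A-CREB, a log2 ratio of -1.60 (counting interval -1.90 to -1.31), while the median ratio of the table was 0.36. A DMSO level over 2 times lower was found in 10.4% of the listed genes, and 27 of 566 genes had a lower ratio than Irs2. In forskolin Irs2 was 7.35 times lower, with 45.2% of genes over 2 times lower and 32 genes at a lower ratio. Its forskolin fold was 5.62 without virus and 2.32 with A-CREB, so it was one of the 108 genes (19.1%) that still reached 2-fold. The change of fold, -1.28 (counting interval -1.62 to -0.94), was close to the table's median of -1.20, and a lower fold with A-CREB was seen in 92.2% of genes. The ratios of Irs2 between conditions thus lay near the low edge of the table, and its change of fold near the middle. Forskolin added 233 FPKM without virus and 21.9 FPKM with A-CREB, 9.41% of the no-virus gain, where the median gene had 12.2%. Levels over 2 times lower in both treatments were found in 45 genes (7.95%), Irs2 included.

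**Figure D3:**
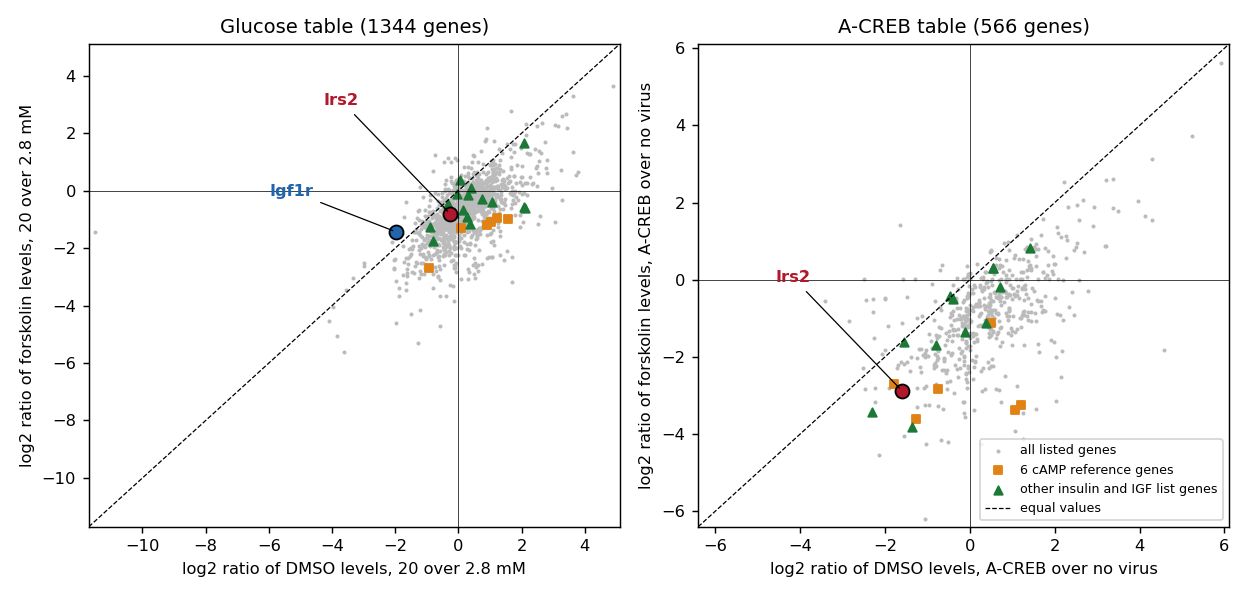
Log2 ratio of levels between conditions in DMSO (horizontal axis) and in forskolin (vertical axis) for each listed gene, left for 20 over 2.8 mM glucose and right for A-CREB over no virus, with 1 library per group and genes at 0 placed by the added 0.1 FPKM. Igf1r lies far to the left at -1.97 in DMSO and above the dashed line of equal ratios; Irs2 is near the centre of the glucose panel at -0.26 and -0.80 and at the lower left of the A-CREB panel at -1.60 and -2.88.

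A set of 6 known cAMP-responsive genes, Nr4a1, Fos, Crem, Sik1, Per1 and Dusp1, gives a scale for these values. Their reference folds were larger than those of Irs2 in both tables, from 12.1 for Per1, a clock gene, to 116 for Fos, an AP-1 subunit, at 2.8 mM glucose. At 20 mM their changes of fold ran from -1.40 for Per1 to -2.54 for Crem, which encodes CREB-family activators and the repressor ICER. All 6 were more negative than the -0.54 of Irs2. Part of this lay in DMSO, where Nr4a1, Fos, Crem and Sik1 were 1.86, 2.03, 2.95 and 2.33 times higher at 20 mM. Per1 was 1.07 times higher there and Dusp1 1.90 times lower, beside 1.20 times lower for Irs2. The log2 forskolin ratios of the 6 ran from -0.94 for Sik1 to -2.68 for Dusp1, beside -0.80 for Irs2. The FPKM gained at 20 mM was 12.3% of that at 2.8 mM for Dusp1, a MAP kinase phosphatase, and 34.5% to 50.4% for the other 5, under the 53.7% of Irs2. With A-CREB the gain was 5.41% to 14.5% of the no-virus gain for 5 of these genes and 40.1% for Dusp1, beside 9.41% for Irs2. Sik1, a kinase that restrains the CREB coactivators, Crem and Dusp1 had DMSO levels 2.09, 2.31 and 1.41 times higher with A-CREB. Irs2, Nr4a1, Fos and Per1 had DMSO levels 3.04, 2.42, 3.44 and 1.67 times lower.

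The remaining pathway was looked up in lists of ligands, receptors, adaptors, enzymes, inhibitors and outputs, 109 genes without Irs2 and Igf1r. The glucose table held 17 of them (15.6%) and the A-CREB table held 12 (11.0%). The share of all rat genes that were listed was not computed, so these counts are not read as a result about the pathway. In each pair of folds below, the reference condition comes first. None of the 4 ligands, none of the 3 other receptors, none of the 10 other adaptors, none of 10 PI 3-kinase and AKT genes and none of 7 FOXO and GSK3 genes was in either table, and these genes were not analysed here. Of these steps, Irs2 and Igf1r were the listed genes, and this too is not read as a result about the pathway. In the glucose table, 16 of the 17 genes had a fold below that at 2.8 mM and 1 was above it. A lower fold was seen in 91.2% of all listed genes. Lower by over 1.5 times were 9 of the 17, beside 65.6% of all listed genes. The median change was -0.62 beside -0.81 over all genes. In the A-CREB table, 11 of 12 had a lower fold (92.2% of all listed genes), 7 by over 1.5 times (79.0% of all listed genes). The median change there was -0.74 beside -1.20.

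**Figure D4:**
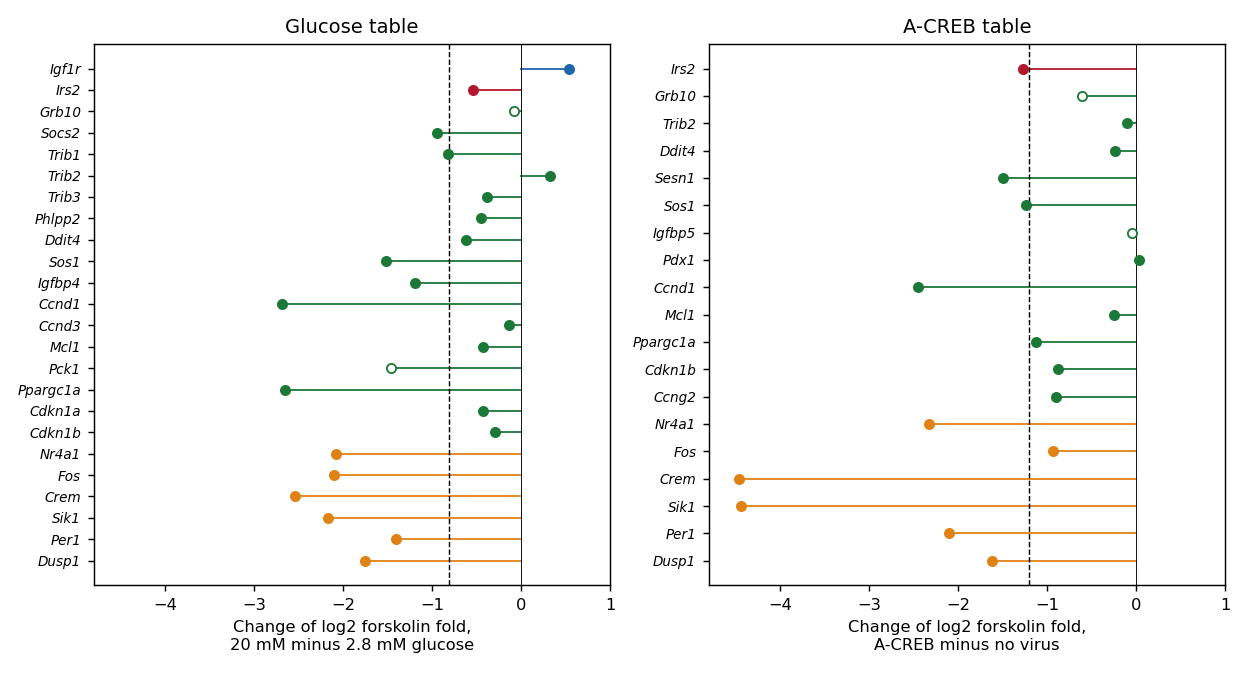
Change of the log2 forskolin fold of Irs2 (red), Igf1r (blue), the other insulin and IGF pathway genes reported here (green) and 6 cAMP reference genes (orange), left for 20 mM minus 2.8 mM glucose and right for A-CREB minus no virus, from 1 library per group. Open circles are genes with a mean under 1 FPKM, and the dashed line is the median of all listed genes, -0.81 and -1.20. Igf1r at 0.54 and Trib2 at 0.33 are to the right of 0 in the glucose table, and Irs2 sits next to the dashed line in the A-CREB table.

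Of 19 inhibitors of the pathway, 6 were in the glucose table. Socs2, a suppressor of cytokine and growth hormone signalling, measured 49.4 FPKM (DMSO) and 118 FPKM (forskolin) in the 2.8 mM libraries, against 28.2 and 35.1 FPKM in the 20 mM libraries. Trib1, a pseudokinase that directs proteins to degradation, had folds of 3.42 and 1.94. Trib3, a pseudokinase known to bind AKT, had folds of 5.34 and 4.09 with a DMSO level 1.86 times lower at 20 mM, and Phlpp2, a phosphatase of AKT, had folds of 2.28 and 1.66. Trib2, named after its values were seen as the gene with a higher fold, measured 1.61 and 6.10 FPKM in the 2.8 mM libraries, against 1.65 and 7.88 FPKM in the 20 mM libraries. In the A-CREB table the folds of Trib2 were 2.36 without virus and 2.19 with A-CREB. Grb10, an adaptor that dampens both receptors, was under 1.4 FPKM in all libraries of both tables.

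In the glucose table Sos1, of the RAS arm, had a more negative change of fold than Irs2, at -1.52. Ddit4, of the mTOR arm, was at -0.62 in that table, beside -0.54 for Irs2, and whether the 2 genes differ was not tested. Sos1, which loads RAS with GTP, had folds of 4.09 and 1.43 there, and of 2.67 and 1.13 in the A-CREB table. Ddit4, an inhibitor of mTOR complex 1, had folds of 2.90 and 1.89 with glucose and of 4.41 and 3.75 with A-CREB, where its forskolin level of 233 FPKM was above the no-virus value of 188 FPKM. Sesn1, another inhibitor of that complex, had 2.37-fold without virus and was lower in forskolin than in DMSO with A-CREB, at 11.3 and 13.5 FPKM. Igfbp4, a binding protein that holds back IGF, had folds of 5.04 and 2.20 in the glucose table, and Igfbp5 was under 0.7 FPKM in the A-CREB table and listed at 0 in 1 library.

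Among growth and survival outputs, Ccnd1, which encodes cyclin D1, had the largest reference folds, 145 at 2.8 mM and 12.8 without virus, both from DMSO levels near or under 1 FPKM. With forskolin it was at 86.5 and 57.6 FPKM at 2.8 and 20 mM, and at 15.1 and 0.975 FPKM without virus and with A-CREB. Ccnd3, which encodes cyclin D3, had folds of 3.57 and 3.24 with glucose. Pdx1, a transcription factor of beta cells, had folds of 2.09 without virus and 2.13 with A-CREB. Mcl1, a survival protein of the BCL2 family, had folds of 2.73 and 2.03 with glucose, and of 2.14 and 1.81 with A-CREB.

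Known FOXO targets differed among themselves. Ppargc1a, a coactivator of mitochondrial genes, was lower with A-CREB in both treatments, as Irs2 was. Its DMSO level was 4.93 times lower and its forskolin level 10.8 times lower than without virus. With glucose it was unlike Irs2, with a DMSO level 4.24 times higher at 20 mM and folds of 44.4 and 7.05. Cdkn1a, a cell cycle inhibitor, was 4.23 times higher in DMSO and 3.16 times higher in forskolin at 20 mM glucose, the reverse of Igf1r. Cdkn1b, a related inhibitor, had folds of 5.01 and 4.08 with glucose, and of 2.41 and 1.31 with A-CREB. Ccng2, which encodes cyclin G2, had folds of 2.60 without virus and 1.39 with A-CREB, and Pck1, a gluconeogenic enzyme, was under 0.2 FPKM in all libraries of the glucose table.

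Genes with the most similar profiles were found by the distance between log2 profiles over the 4 libraries of a table, each gene's mean removed, leaving out genes that averaged under 1 FPKM or had a 0. In the glucose table, out of 1046 such genes, those nearest to Irs2 were Srxn1, Errfi1, Emd, Jund and Ppp1r11, at distances of 0.208 to 0.360. Srxn1 encodes sulfiredoxin, Errfi1 a feedback inhibitor of the EGF receptor, Emd emerin of the nuclear envelope, Jund an AP-1 subunit and Ppp1r11 an inhibitor of protein phosphatase 1. In the order 2.8 mM DMSO, 2.8 mM forskolin, 20 mM DMSO and 20 mM forskolin, Srxn1 measured 31.2, 277, 23.2 and 155 FPKM, beside 66.5, 546, 55.4 and 313 FPKM for Irs2. Nearest to Igf1r were Sgk1, a kinase activated through PI 3-kinase, Wnt4, a Wnt ligand, Camk1g, a calmodulin-dependent kinase, Efna5, an ephrin ligand, and Piga, an enzyme of GPI anchor synthesis. Their distances of 0.541 to 0.617 were larger than those around Irs2, so Igf1r had no neighbour as close. In the same order Sgk1 measured 9.53, 46.7, 3.15 and 11.4 FPKM, and its folds were 4.86 and 3.54.

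In the A-CREB table, out of 387 genes, those nearest to Irs2 were Zhx2, a transcriptional repressor, Enc1, an actin-binding protein, Il1r1, the interleukin 1 receptor, Barhl1, a homeobox factor, and Per1. Zhx2 was the closest at 0.182 and the others were at 0.407 to 0.609. It was at 2.31 and 12.1 FPKM without virus and at 0.680 and 1.48 FPKM with A-CREB. A profile over 4 libraries that share one experiment is a short description, and the likeness of these genes had no replicate check.

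CREB binds the palindrome TGACGTCA, and also its shorter core TGACG. Windows from 250 bases before to 50 after the annotated start, from RefSeq on the GRCr8 rat build, were read for Igf1r and for Srxn1 and Errfi1, the 2 genes nearest to Irs2 in profile in the glucose table. No window was matched to Irs2, so its own promoter was not read. The Igf1r window (chr1:130959747-130960046, plus strand) has in capitals the GC box GGGCGG and the E-box CACGTG. The Srxn1 window (chr3:161064562-161064861, plus strand) and the Errfi1 window (chr5:166606591-166606890, plus strand) have in capitals TGACG, which in both is on the opposite strand and so reads CGTCA. All are written 5′ to 3′ along the gene.
Igf1r: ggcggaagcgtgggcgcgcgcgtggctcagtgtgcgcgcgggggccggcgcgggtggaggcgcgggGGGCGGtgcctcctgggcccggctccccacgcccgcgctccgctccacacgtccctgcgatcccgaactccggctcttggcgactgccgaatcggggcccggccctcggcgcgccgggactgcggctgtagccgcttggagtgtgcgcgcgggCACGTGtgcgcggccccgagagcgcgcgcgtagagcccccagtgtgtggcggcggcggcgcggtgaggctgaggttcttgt
Srxn1: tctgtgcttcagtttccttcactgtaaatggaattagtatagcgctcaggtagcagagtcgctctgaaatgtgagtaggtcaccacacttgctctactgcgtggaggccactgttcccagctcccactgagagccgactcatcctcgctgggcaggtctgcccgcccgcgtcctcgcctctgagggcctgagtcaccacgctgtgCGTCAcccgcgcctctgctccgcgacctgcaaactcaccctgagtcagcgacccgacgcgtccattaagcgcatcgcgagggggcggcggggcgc
Errfi1: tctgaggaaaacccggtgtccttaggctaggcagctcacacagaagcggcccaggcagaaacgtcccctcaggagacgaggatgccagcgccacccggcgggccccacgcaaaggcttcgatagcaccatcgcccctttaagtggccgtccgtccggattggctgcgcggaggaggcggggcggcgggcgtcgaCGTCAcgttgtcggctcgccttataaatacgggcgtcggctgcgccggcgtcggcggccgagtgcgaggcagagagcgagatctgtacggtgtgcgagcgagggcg

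The Igf1r window is rich in G and C, at 78% of bases, above 98.4% of the 33469 windows of the table. It holds 1 GC box, at position -184 from the start site counted to the first base of the match, and 1 E-box at position -31, and neither TGACG nor TATAAA. A GC box on either strand is in 33.1% of all windows and in 60.6% of those matched to genes of the glucose table, and the E-box is in 6.42% and 10.7%. The Srxn1 window holds 1 TGACG, at position -45, and the Errfi1 window 1, at position -56. Neither holds the palindrome. The GC box, counted on both strands, is also in these windows, 2 times in Srxn1 and 1 time in Errfi1. TATAAA is in the Errfi1 window 1 time. These GC box and TATAAA matches are not in capitals. TGACG, counted on both strands and including those inside the palindrome, is in 21.2% of all windows and in 39.6% of those matched to genes of the glucose table. In that table it was in the windows of 5 of the 5 genes nearest to Irs2, of which 1, Jund, holds the palindrome, and of 1 of the 5 nearest to Igf1r, Piga. A gene was counted if any of its windows held the match, while the shares are of single windows. Sgk1 had 3 windows, Piga 2 and the other genes nearest to either 1 each. The palindrome is in 1.83% of all windows and in 6.84% of those matched to genes of the glucose table. Of the 5 nearest to Irs2 in the A-CREB table, 2 had a window and 0 held TGACG. Of the windows matched to genes of the A-CREB table, 36.4% hold TGACG. These matches are a description of letters in a short window, and nothing about binding was measured.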

How the data were processed

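RNA from 8 INS-1 libraries was sequenced, 1 library per group. Per the labels' protocols, mRNA was isolated and NEBNext Ultra kits were used. The submitters' processing notes name TopHat2, Cuffdiff and the rn5 rat build; their versions, the annotation, strand handling and how libraries were scaled are not given in the sources used here. FPKM is the unit of the deposited values, scaled by the authors for transcript length and library size, so an error in the scaling of a library would move each fold that contains it. The 2 tables were handled separately, and columns were assigned to libraries by name.

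Folds used a pseudocount of 0.1 FPKM, which understates folds of low genes. With 1 library per group no p-value was computed. A gene of the lists is counted but not reported here. The genes, lists and named-gene rule (members, up to 4 most expressed genes of a list, and the 5 nearest profiles) were chosen with earlier results of these data known. File names were matched to RefSeq on GRCr8 for names and promoter windows: 1223 by symbol, 22 by gene ID, 86 by synonym and 13 not matched in the glucose table, and 524, 9, 31 and 2 in the A-CREB table. Relative depth came from ratios of low values that fall on ratios of whole numbers up to 6 (tolerance 2%), which 62.0% to 65.2% of ratios did in the glucose table and 70.8% to 81.0% in the A-CREB table. This assumes depths within a doubling, and the calculations were tested on simulated data, where relative depths came back closely and the worth of 1 read less so, which makes read numbers approximate. Intervals assume the transcript length of the median low gene. Python 3.11.15, numpy 2.4.6, pandas 2.3.3 and scipy 1.17.1 were used.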

Additional observations from a re-analysis of the deposited data

Results flagged for a closer look

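In 3 genes of the pathway lists forskolin went with a higher level in one condition and a lower level in the other, each with 1 library per group, and the difference was not tested. Sesn1 had a log2 fold of 1.24 without virus and -0.26 with A-CREB, from 10.3 and 24.5 FPKM to 13.5 and 11.3 FPKM. Grb10 had 0.53 and -0.076 in the same table, with all levels under 0.4 FPKM. Pck1 had 0.47 at 2.8 mM glucose and -0.99 at 20 mM, with all levels under 0.2 FPKM, where few reads can turn a direction.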

How the results depend on the processing

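Pseudocounts of 1 and 0.01 FPKM moved the values of Irs2 and Igf1r by less than their counting intervals. All listed genes had a reference fold over 2, so their medians are shifted by the listing rule and are not a neutral scale. Taken relative to the median of all listed genes of a table, the values changed. The change of fold of Irs2 at 20 mM glucose then became 0.27 in place of -0.54, its folds 1.59 and 1.77, its DMSO ratio -0.41 and its forskolin ratio -0.13. For Igf1r the change of fold became 1.35, the folds 0.15 and 1.41, the DMSO ratio -2.12 and the forskolin ratio -0.76. For Irs2 with A-CREB the change of fold became -0.077, the folds 1.15 and 0.85, the DMSO ratio -1.96 and the forskolin ratio -1.98. With a pseudocount of 1, 2-fold was reached in the A-CREB table by 289 genes in the uninfected libraries and by 66 in the infected ones, in place of 455 and 108, and 4 in place of 18 had a fold higher by over 1.5 times, or 6 with a mean of at least 1 FPKM. A fold higher by over 1.5 times was found for 28 genes with glucose, with 15 at a pseudocount of 1, 45 at 0.01, 13 at a mean of at least 1 FPKM and 12 at a threshold of 2 times. Lower by 2 times were 528 genes. At a threshold of 1.5-fold 784 genes passed at 20 mM and 212 with A-CREB. Of the 5 nearest genes, Pearson correlation shared 2 for Irs2 and 1 for Igf1r in the glucose table and 1 for Irs2 in the A-CREB table. List counts stayed within 1.5 times under a pseudocount of 1, a mean of at least 1 FPKM and, added after seeing the data, without genes at 0. No paired analysis was possible because each group has 1 library. Read numbers limit Irs2 most in A-CREB DMSO, at about 123 reads.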
